A study of Mus musculus with 8 samples.

Results

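NOD/ShiLtJ is an inbred mouse strain in which lymphocytes destroy the insulin-producing cells of the pancreas, and it is the classic animal model of autoimmune type 1 diabetes. Its nuclei from the striatum were compared with those of 7 further inbred strains, which were the wild-derived CAST/EiJ, PWK/PhJ and WSB/EiJ and the classical laboratory strains C57BL/6, NZO/HlLtJ, A/J and 129S1/SvImJ. The members are the annotated nuclei that the submitters' nucleus table assigns to NOD/ShiLtJ in the 5 largest clusters, namely Drd1+ neurons, Drd2+ neurons, oligodendrocytes, astrocytes and macrophages. They number 5601, with 1369, 1477, 1156 and 1599 from the mice of batches 1 to 4, out of 6508 annotated NOD/ShiLtJ nuclei, 55672 annotated nuclei in all and 89339 barcodes in the nucleus table. By cluster, 1358 were Drd1+ neurons, 1496 Drd2+ neurons, 1889 oligodendrocytes, 517 astrocytes and 341 macrophages. The other 7 strains gave 42449 nuclei in the same clusters.

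The study measured nuclear RNA and open chromatin in the same nuclei of frozen striatum from 32 mice aged 12 weeks. Nuclei of 8 mice, 1 of each strain, were pooled in each of 4 batches and assigned back to a strain from the genotypes in their reads, so every strain is represented by 4 mice. No mouse carried a transgene or received a treatment according to the labels, and a diabetes or blood glucose status of the NOD/ShiLtJ mice is not given in the sources used here. NZO/HlLtJ is written as NZO/H1LtJ in the sample labels, and the C57BL/6 mice are called C57BL/6J in the labels and C57BL/6NJ in the nucleus table. NOD/ShiLtJ is itself a classical laboratory strain.

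The striatum is the main input station of the basal ganglia. Most of its neurons are GABAergic projection neurons of 2 kinds: Drd1+ neurons of the direct pathway, which make dynorphin and substance P, and Drd2+ neurons of the indirect pathway, which make enkephalin. Oligodendrocytes wrap axons in myelin, astrocytes take up transmitter and buffer potassium, and the brain's macrophages are mostly microglia. In NOD/ShiLtJ mice the autoimmune attack on the pancreas depends on particular MHC class II molecules, and the strain is also known for a lack of complement C5, encoded by Hc, and for early hearing loss linked to Cdh23.

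Sex did not split evenly with strain. Y-linked transcripts were found in all 4 NOD/ShiLtJ mice, at 419 to 456 CPM (counts scaled to a common library size) summed over 4 genes, and in 2 of 4 mice of each other strain. Xist, the RNA of the inactive X chromosome, stood at 7.51 to 13.2 CPM in the NOD/ShiLtJ mice against 1047 to 2624 CPM in the mice without Y transcripts. The labels state 4 male and 4 female mice per batch, while batches 1 and 2 held 5 mice with Y transcripts and batches 3 and 4 held 4. Sex and strain therefore overlap in part, and the counts over all genes in each cluster, with those of several gene lists, are given again with a sex term in the fit and with the 14 other mice that carried Y transcripts as the only comparison mice.

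Raw counts were summed over the nuclei of each mouse in each cluster, which gave 4 NOD/ShiLtJ and 28 other libraries per cluster. NOD/ShiLtJ libraries held 1710451 to 3023460 counts in Drd1+ neurons, 1653123 to 3067208 in Drd2+ neurons, 569832 to 1102547 in oligodendrocytes, 229676 to 483163 in astrocytes and 113981 to 164350 in macrophages. The thinnest of the other libraries held 38252 counts in astrocytes and 27325 in macrophages, from 23 and 24 nuclei. Nuclei in the NOD/ShiLtJ clusters carried the markers of their names: 686 to 1086 CPM over 4 markers in Drd1+ neurons, 1680 to 2636 over 4 in Drd2+ neurons, 19138 to 25418 over 5 in oligodendrocytes, 7789 to 9413 over 5 in astrocytes and 5352 to 12649 over 5 in macrophages. RNA of other cell types was present too. In NOD/ShiLtJ Drd1+ neurons 5 oligodendrocyte markers summed to 1152 to 1271 CPM, above the cluster's own 4 markers. In Drd1+ neurons of the other strains they summed to 975 to 1402 CPM. In NOD/ShiLtJ Drd2+ neurons their mean was 1213 CPM, beside 2101 CPM for the Drd2+ markers. The 5 oligodendrocyte markers summed to 4150 to 5325 CPM in NOD/ShiLtJ macrophages and to 3064 to 5918 CPM in those of the other strains. In NOD/ShiLtJ macrophages their mean was 4640 CPM, beside 7909 CPM for the macrophage markers. In NOD/ShiLtJ astrocytes it was 4025 CPM, beside 8606 CPM for the astrocyte markers. The part of such RNA in the calls was not tested. In all, 1517 barcode sequences occurred in more than 1 batch, and barcodes were kept apart by batch.

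Autosomal genes were tested in each cluster for a difference between NOD/ShiLtJ and the mean of the other 7 strains, with the batch as a block. The test was edgeR's quasi-likelihood test with Benjamini-Hochberg adjustment, and a gene is called changed at an adjusted p under 0.05. Fold changes are log2 values of NOD/ShiLtJ minus the mean of the 7, with their standard error (SE). In Drd1+ neurons 1941 of 12220 tested genes were called (15.9%), of which 1142 were higher in NOD/ShiLtJ (9.35%) and 799 lower (6.54%). In Drd2+ neurons 1424 of 11702 were called (12.2%), 864 higher (7.38%) and 560 lower (4.79%). Among 8586 genes in oligodendrocytes, 820 were called (9.55%), 487 higher (5.67%) and 333 lower (3.88%). Astrocytes gave 321 of 7812 (4.11%), 222 higher (2.84%) and 99 lower (1.27%). Macrophages gave 212 of 3710 (5.71%), 140 higher (3.77%) and 72 lower (1.94%). The clusters differ in depth, so these counts do not rank the clusters by how much they differ. With a sex term the counts were 1893, 1400, 734, 265 and 192, and against mice with Y transcripts alone they were 2323, 1780, 896, 336 and 222. Against those mice 1384 were higher and 939 lower of 12475 genes in Drd1+ neurons, and 1087 and 693 of 12036 in Drd2+ neurons. Oligodendrocytes gave 508 and 388 of 9083, astrocytes 219 and 117 of 8492, and macrophages 144 and 78 of 4190. With the sex term as many genes were tested as in the main fit. The higher and lower ones were then 1122 and 771, 859 and 541, 426 and 308, 178 and 87, and 128 and 64, in the same order. Of the 1941 genes called in Drd1+ neurons, 1684 were also called with the sex term, all in the same direction. In the main fit 58.8%, 60.7%, 59.4%, 69.2% and 66.0% of the called genes were higher, in the order of clusters above. Against the 4 classical strains alone these shares were 53.7%, 53.7%, 55.0%, 62.1% and 55.1%. Reads of every strain were mapped to a reference genome, and how mapping differed by strain was not tested.

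A difference from the mean of 7 strains can come from all of them or from a few. NOD/ShiLtJ was therefore also compared with each strain in turn. In Drd1+ neurons it differed in 1244 genes from 129S1/SvImJ (10.2%), 1386 from C57BL/6 (11.3%), 1543 from A/J (12.6%), 1695 from WSB/EiJ (13.9%), 1924 from NZO/HlLtJ (15.7%), 3342 from PWK/PhJ (27.3%) and 3427 from CAST/EiJ (28%). The 2 largest counts were those against wild-derived strains. The genes called in 1 direction against all 7 strains numbered 85 (0.696%) and 49 (0.419%) in the Drd1+ and Drd2+ neurons, 25 (0.291%) in oligodendrocytes, 4 (0.0512%) in astrocytes and 5 (0.135%) in macrophages. Leaving out any 1 batch lowered each of these 5 counts, as given further below. Of the 85 in Drd1+ neurons, 55 were higher and 30 lower in NOD/ShiLtJ. More often a gene was called against some strains only. In Drd1+ neurons 533 of the called genes were called in the same direction against 3 strains, 71 against a single strain and 3 against 0. Each such comparison sets 4 mice against 4, so a strain without a call may still differ. The number of called genes for which all 4 NOD/ShiLtJ mice lay outside the range of the 28 others was 75 (0.614%) and 42 (0.359%) in the Drd1+ and Drd2+ neurons, 25 (0.291%) in oligodendrocytes, 8 (0.102%) in astrocytes and 8 (0.216%) in macrophages. The genes described first in each cluster below are the ones with the largest fold changes among these, so their separation is part of how they were chosen.

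**Figure D1:**
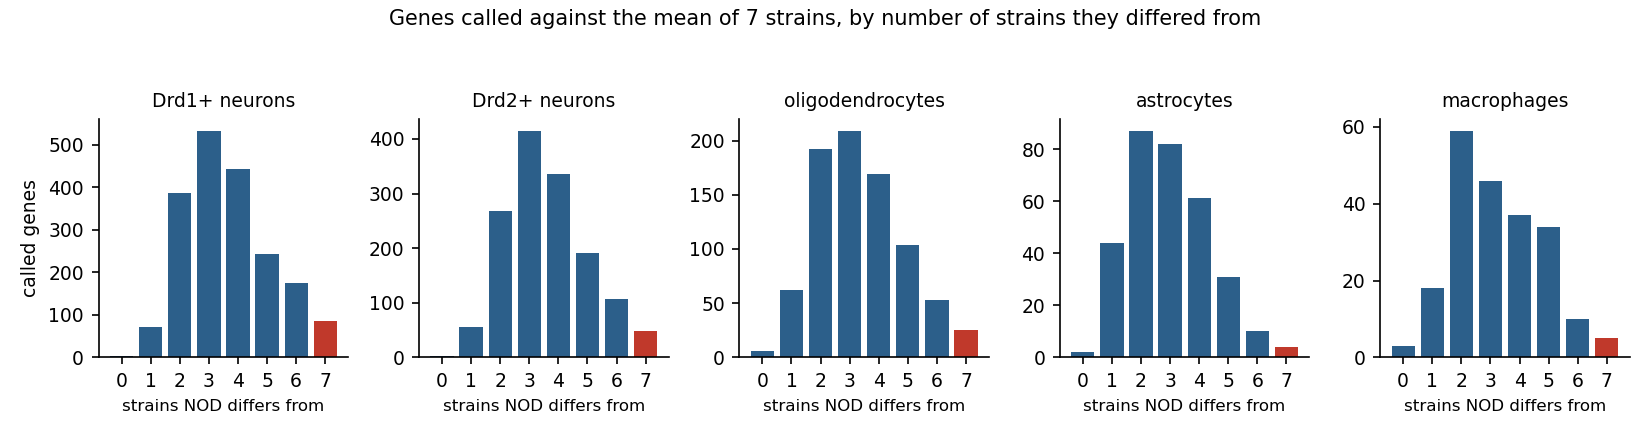
Called genes (y axis, one scale per panel) by number of strains they were called against in the same direction (x axis, 0 to 7). The panels are the 5 clusters. The bars at 7 strains stand for 85, 49, 25, 4 and 5 genes, and the tallest bars are at 3 strains in Drd1+ neurons, Drd2+ neurons and oligodendrocytes and at 2 in astrocytes and macrophages.

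In Drd1+ neurons the gene with the largest rise was Ctcflos, a long noncoding RNA named for its place opposite the testis gene Ctcfl on chromosome 2. It stood at 33.3, 32.9, 70.7 and 56.6 CPM in the NOD/ShiLtJ mice of batches 1 to 4, and at 0, 1.24 and 12.3 CPM in the lowest, median and highest of the others. The 4 NOD/ShiLtJ mice were all above the other 28, and NZO/HlLtJ had the highest mean of the other strains at 9.70 CPM. The log2 fold change was 4.91 (SE 0.18, adjusted p = 2.15e-24 by edgeR). Strand use in the counting is not given in the sources used here, so reads of Ctcflos and of a gene on the other strand cannot be told apart.

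The other 7 of the separated genes that rose most in Drd1+ neurons were of mixed kinds. Ntn4, a secreted netrin of basement membranes, stood at 35.1, 33.9, 39.6 and 45.0 CPM against a median of 10.1 and a highest value of 23 in the others, a log2 fold change of 3.02 (SE 0.17). Rab3b, a small GTPase of synaptic vesicles, stood at 52.8, 68.4, 70.7 and 54.9 CPM against at most 31.4 (2.55, SE 0.13). Ppfibp1, which encodes the scaffold protein liprin-beta-1, stood at 55.9, 44.6, 37.9 and 52.2 CPM against at most 16.4 (2.22, SE 0.11). In each of these 3 the NOD/ShiLtJ mice lay above every other mouse. Col11a1, a fibrillar collagen chain (2.42, SE 0.27), Lypd6b, a membrane-anchored protein of the Ly6 family that acts on nicotinic receptors (2.31, SE 0.25), the noncoding Gm15411 (2.78, SE 0.19) and the zinc finger gene Zfp729a (1.91, SE 0.12) completed the 8 genes, with adjusted p from 1.41e-18 to 1.35e-08 over these 4 and Rab3b.

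The separated gene that fell most in Drd1+ neurons was Syt9, a synaptotagmin that senses calcium for vesicle fusion. It stood at 4.88, 7.04, 4.52 and 7.50 CPM in NOD/ShiLtJ and at 14.2, 28.4 and 58.1 CPM in the lowest, median and highest of the others. No NOD/ShiLtJ mouse reached the range of the others, whose strain means spanned 17.0 CPM (CAST/EiJ) to 45.1 CPM (C57BL/6). The log2 fold change was -2.22 (SE 0.17, adjusted p = 2.74e-14). Stxbp6, which binds the vesicle fusion machinery, stood at 13.8, 10.1, 16.4 and 9.20 CPM against 19.4 to 86.6 (-2.21, SE 0.36). Ntng1, a membrane-anchored netrin of synaptic adhesion, stood at 7.55, 12.7, 10.7 and 19.4 CPM against 22.2 to 146 (-2.11, SE 0.28). The remaining 5 of the separated genes that fell most were Arhgap10 (-1.72, SE 0.07), Dnah2, a dynein chain of motile cilia (-1.63, SE 0.23), Fstl5, a secreted follistatin-like protein (-1.51, SE 0.09), the noncoding Gm34081 (-1.29, SE 0.19) and Dscaml1, an adhesion molecule of the immunoglobulin family (-1.19, SE 0.13). Each of these 8 was called lower than all 7 strains taken singly.

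The 150 bases before a RefSeq transcript start of Syt9 are shown because this gene fell in both kinds of projection neuron. That start is the one in the promoter table, and the window lies inside the gene's annotated span, downstream of its outermost start. They are reference sequence (GRCm38.p6, chr7:107370640-107370789, plus strand), not that of NOD/ShiLtJ. Capitals mark matches on either strand to GGGCGG, the core of the GC box, which 28.6% of 32851 promoter windows of 150 bases hold. Both strands were also searched for the TATA box motif TATAAA, which 7.57% of those windows hold, for the CCAAT box, in 24.5%, and for the E-box motif CACGTG, in 4.30%. A match is a run of letters and not a measured binding site.
Syt9: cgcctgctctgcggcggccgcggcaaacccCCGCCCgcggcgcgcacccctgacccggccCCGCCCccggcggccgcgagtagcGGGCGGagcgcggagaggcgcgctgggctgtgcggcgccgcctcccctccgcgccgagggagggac

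The Syt9 window overlaps one of 291715 accessible regions that the authors deposited for all batches together, chr7:107370602-107371600, so the region was scored as open, without a value per strain here. Over all genes, 75.5% of 1492 called Drd1+ genes with a promoter window overlapped such a region, against 80.8% of 9654 tested ones. In oligodendrocytes these shares were 71.6% of 624 and 83.9% of 6884.

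In Drd2+ neurons the separated genes with the largest changes included Ctcflos, Gm15411, Ppfibp1, Rab3b and Zfp729a among the higher and Syt9, Fstl5, Stxbp6, Arhgap10 and Ntng1 among the lower. The libraries come from the same mice, so the second cluster is not a separate sample of the strain. Ppfibp1 stood at 27.3, 32.8, 23.5 and 31.7 CPM against 1.06, 5.25 and 12.0 in the lowest, median and highest of the others (log2 2.46, SE 0.16, adjusted p = 2.93e-17 by edgeR). Syt9 stood at 3.41, 2.68, 1.77 and 2.24 CPM against 3.72, 18.3 and 33.1 (-2.70, SE 0.25). For Ppfibp1 the gap between the groups was wide, whereas for Syt9 the highest NOD/ShiLtJ mouse and the lowest other mouse differed by less than 1 CPM. A further 4 separated genes were Myo16, an unconventional myosin, which rose to 98.5 to 115 CPM against 1.85 to 96.3 (2.00, SE 0.10), Rgs6, which shortens G protein signals, which fell to 7.36 to 11.7 CPM against 13.6 to 84.9 (-1.77, SE 0.34), and the lower Pgap2, which matures GPI anchors (-1.77, SE 0.19) and Mei4, known from meiotic recombination (-0.85, SE 0.10).

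In oligodendrocytes the long noncoding RNA A330049N07Rik was nearly undetected in NOD/ShiLtJ. It gave a single count in 3359699 over the 4 NOD/ShiLtJ libraries, which is 1.02, 0, 0 and 0 CPM by batch, and 5132 counts in 17887151 in the others, where the lowest, median and highest mice stood at 2.19, 325 and 585 CPM. The groups did not overlap, but PWK/PhJ was also low, with a mean of 6.01 CPM against 168 to 452 CPM in the other 6 strains. The others' rate was 964 times that of NOD/ShiLtJ, with an exact 95% interval of 173 to 38081 that covers counting error only. The adjusted p was 8.38e-37 by edgeR. Dscaml1 fell to 102, 98.9, 99.3 and 93.6 CPM from 165, 793 and 1165 CPM in the lowest, median and highest of the others (log2 -2.79, SE 0.11). A/J was the nearest strain, with a mean of 199 CPM, and NOD/ShiLtJ was called lower than it too.

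The 3 largest rises in oligodendrocytes were in genes with a low median in the other strains. Gm32122, a noncoding RNA, stood at 158, 152, 284 and 235 CPM against 0, 6.05 and 77.4 in the lowest, median and highest of the others (5.50, SE 0.18). Thbs2, a secreted thrombospondin of the extracellular matrix, stood at 23.5, 17.4, 17.1 and 22.3 CPM against 0, 0 and 4.36 (5.40, SE 0.46), that is 71 counts against 8. Alpk1, a kinase that senses bacterial sugars in innate immunity, stood at 42.9, 38.8, 34.2 and 33.9 CPM against 0, 0.541 and 6.48 (4.70, SE 0.32). All 12 of these NOD/ShiLtJ values lay above every other mouse, and all 3 genes were called higher than each of the 7 strains, with adjusted p from 3.53e-31 to 5.99e-17. Thbs2 and Alpk1 passed the low-count filter only through the NOD/ShiLtJ libraries, so for these 2 a difference was a condition of being tested.

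The promoters of the coding genes Thbs2 and Alpk1 and of A330049N07Rik are shown as the genes nearest to on or off by strain. They are reference sequence (GRCm38.p6, minus strand), 150 bases before the transcript start in the promoter table, at chr17:14694263-14694412, chr3:127780528-127780677 and chr10:73086706-73086855. Capitals mark matches to the CCAAT box and the TATA box motif on either strand, and the window of A330049N07Rik holds none of the 4 motifs. Each of the 3 windows overlaps a deposited accessible region.
Thbs2: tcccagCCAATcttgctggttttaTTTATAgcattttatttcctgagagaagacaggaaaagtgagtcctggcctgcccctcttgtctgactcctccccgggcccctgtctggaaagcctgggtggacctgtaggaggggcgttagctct
Alpk1: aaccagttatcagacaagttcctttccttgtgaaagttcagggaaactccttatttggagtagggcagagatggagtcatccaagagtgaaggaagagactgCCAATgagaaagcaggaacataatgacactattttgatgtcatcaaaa
A330049N07Rik: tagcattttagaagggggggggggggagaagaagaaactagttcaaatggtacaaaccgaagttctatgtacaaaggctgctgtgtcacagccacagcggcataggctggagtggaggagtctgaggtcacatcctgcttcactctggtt

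Other separated genes in oligodendrocytes were Slit2, a guidance ligand (2.80, SE 0.25), the carboxypeptidase gene Cpq (2.04, SE 0.19), Kcnma1, the large-conductance calcium-activated potassium channel (1.66, SE 0.13), Lekr1 (1.45, SE 0.21) and Zfp729a (1.24, SE 0.15), which rose. Lower were Macrod2, which removes ADP-ribose from proteins (-1.02, SE 0.09), Fam13c (-0.98, SE 0.12), and the adhesion genes Cadm2 (-0.95, SE 0.07) and Mdga2 (-0.80, SE 0.07). Cadm2 stood at 711, 613, 529 and 629 CPM against 809 to 1644 CPM. Of these 9 genes, all but Slit2 and Lekr1 were called against each of the 7 strains, and those 2 were called against 6 and 5.

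**Figure D2:**
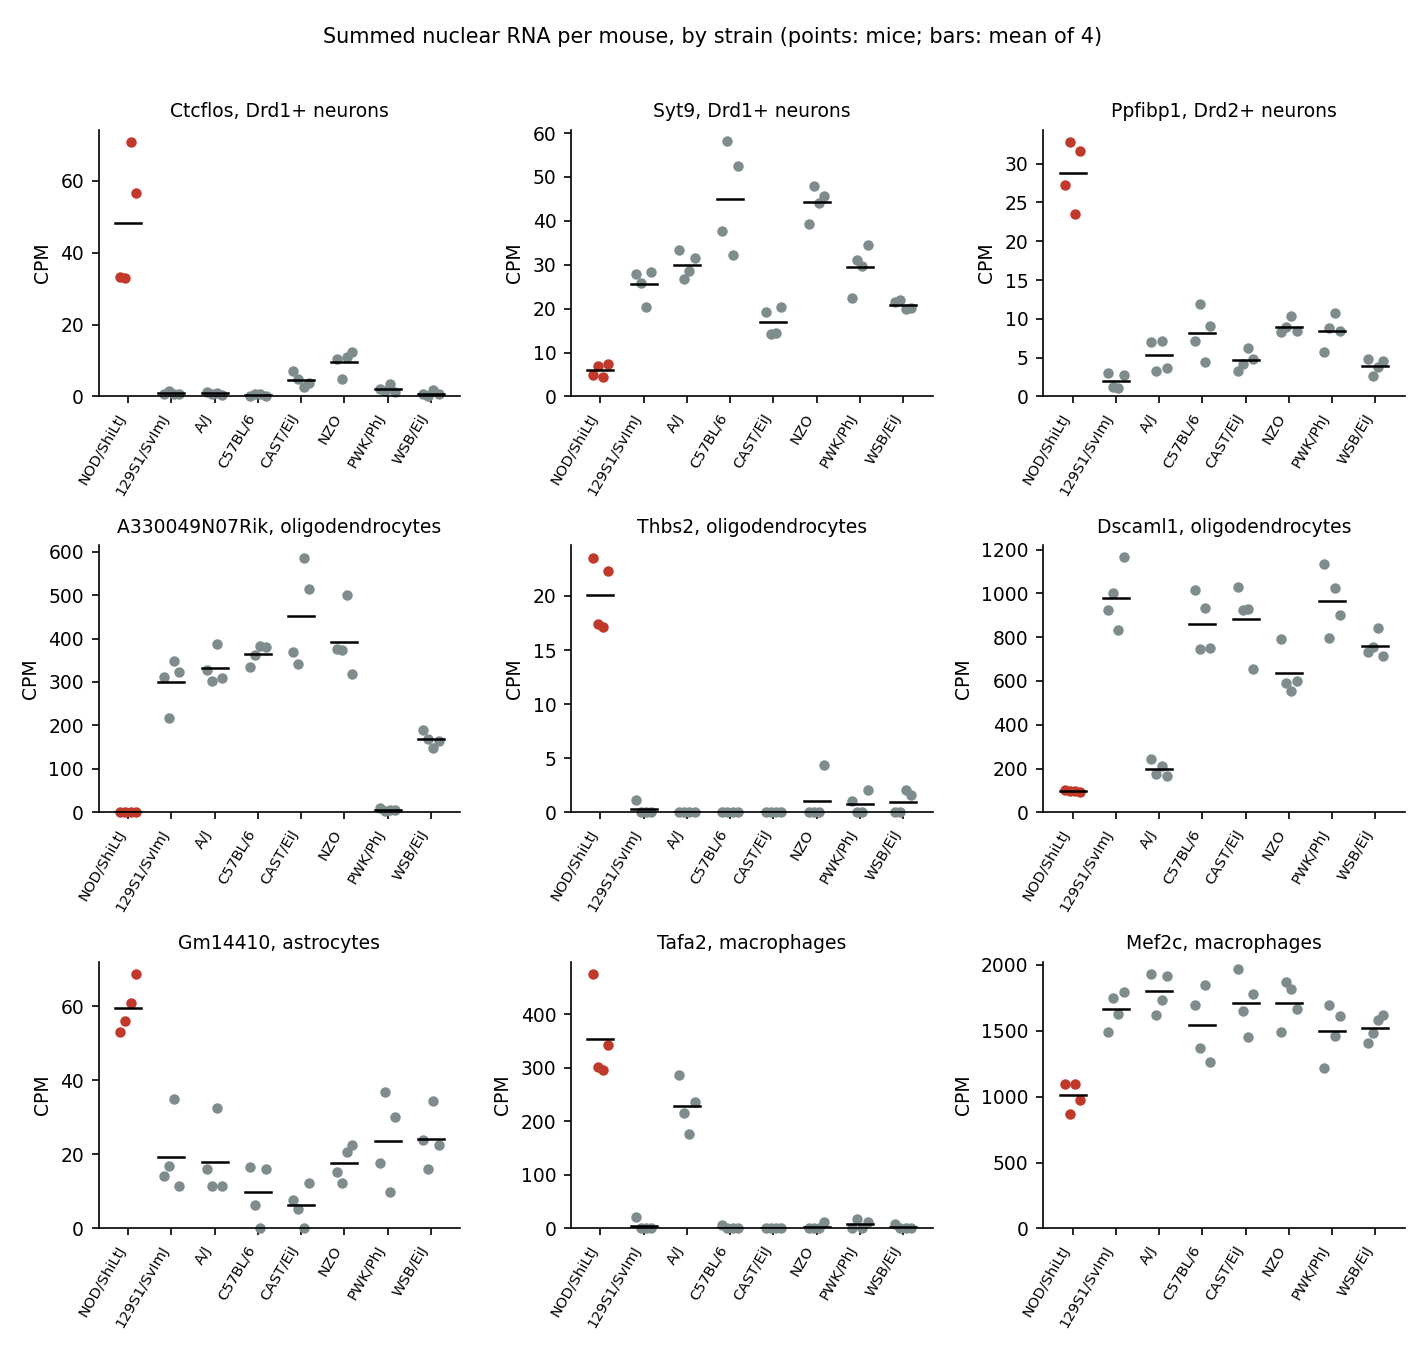
Summed nuclear RNA in CPM (y axis, from 0) of 9 genes in the cluster named above each panel, by strain (x axis), with 1 point per mouse, NOD/ShiLtJ in red and a bar at the mean of 4 mice. The 4 NOD/ShiLtJ mice lie outside the range of the other 28 in every panel, which was a condition for choosing these genes. The panels also show the low PWK/PhJ mice of A330049N07Rik and the high A/J mice of Tafa2.

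Astrocytes gave 8 separated genes. Zfp729a stood at 53.1, 58.0, 34.8 and 37.2 CPM against at most 27.3 in the others (1.95, SE 0.29), and Gm14410, another gene of the KRAB zinc finger kind, at 53.1, 55.9, 60.9 and 68.6 CPM against at most 36.8 (1.89, SE 0.25). Both genes have near-identical relatives in the mouse genome, so reads may be shared with a copy and the gene that rose is uncertain. Gabbr1, a subunit of the GABA-B receptor, stood at 378, 445, 457 and 403 CPM against 178, 257 and 375 (0.65, SE 0.10, adjusted p = 5.87e-06 by edgeR) and was called higher than all 7 strains. Its 4 NOD/ShiLtJ mice lay just above the highest other mouse. Prune2 (1.32, SE 0.19) and the choline kinase gene Chka (0.52, SE 0.13) were the other 2 that rose. Notum, which cuts the lipid from Wnt proteins (-3.43, SE 0.87), Ttll3, which adds glycine to tubulin (-2.13, SE 0.36), and Invs, a ciliary protein gene (-1.11, SE 0.19), fell. Chka lost its call without batch 2 (adjusted p = 0.0822), and Notum, with 0 CPM in 2 NOD/ShiLtJ mice, lost it without batch 3 (adjusted p = 0.0501).

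In macrophages Tafa2, a secreted chemokine-like protein of the brain, stood at 475, 301, 297 and 343 CPM in NOD/ShiLtJ and at 0, 0 and 287 CPM in the lowest, median and highest of the others. A/J was the second strain with the gene on, with a mean of 229 CPM, while no other strain mean exceeded 7.55 CPM. NOD/ShiLtJ was called higher than 6 strains, A/J being the exception, and its log2 fold change against the mean of 7 was 5.80 (SE 0.28, adjusted p = 5.54e-34 by edgeR). Adamts16, a secreted metalloprotease, stood at 259, 259, 198 and 253 CPM against at most 164 (2.39, SE 0.22), and Lhfpl2, a membrane protein of the tetraspan kind, at 786, 645, 560 and 494 CPM against at most 314 (1.57, SE 0.14). Both lay above every other mouse and were called higher than all 7 strains.

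Macrophage genes that fell included 2 of known myeloid function. Mef2c, a transcription factor that restrains microglial activation, stood at 1097, 869, 1096 and 976 CPM against 1213, 1638 and 1970 CPM in the lowest, median and highest of the others (-0.70, SE 0.10, adjusted p = 3.46e-08). Tbxas1, the synthase of thromboxane, stood at 104, 119, 181 and 193 CPM against 210 to 695 (-1.33, SE 0.18). Mctp1, a calcium-binding membrane protein, stood at 138, 154, 115 and 84.3 CPM against 210 to 879 (-1.78, SE 0.20). All 3 were called lower than each of the 7 strains, and in none did the groups overlap. The median number of UMIs, the counted RNA molecules, per macrophage nucleus was also higher in NOD/ShiLtJ, at 1517 ± 140 (SD, n = 4) against 1393 ± 197 (SD, n = 28; exact permutation within batches, two-sided, adjusted p = 0.0242 over 6 measures), and its part in the macrophage results was not tested. Without batch 2 or 3 that difference was not called (adjusted p = 0.0996 and 0.328). The chromatin factor gene Ss18 fell by 1.05 (SE 0.25), and Peli2, a ubiquitin ligase of Toll-like receptor signals, rose by 0.90 (SE 0.14).

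Of 3120 genes tested in all 5 clusters, 3 were called in every one and 2 of these in a single direction. Catspere2, a subunit gene of the sperm calcium channel, was lower, with log2 fold changes of -0.64 and -0.57 in the Drd1+ and Drd2+ neurons, -1.11 in oligodendrocytes, -1.06 in astrocytes and -1.54 in macrophages. It was not low against every strain: in Drd1+ neurons the 4 NOD/ShiLtJ mice stood at 126 to 137 CPM, above the CAST/EiJ mean of 55.8 and below the PWK/PhJ mean of 531. The zinc finger gene Zfp934 was higher, by 0.56, 0.47, 0.83, 0.70 and 0.96. Against the 4 classical strains alone Zfp934 lost its call in 4 of the 5 clusters and kept it in oligodendrocytes, where it was lost without batch 4 (adjusted p = 0.0671).

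The genes called against all 7 strains in any cluster numbered 131, and each had a place on an autosome. Along the chromosomes 14 of them lay within 1 Mb of the one before, for instance Arhgap10 and Nr3c2, the mineralocorticoid receptor gene, which are 5354 bases apart on chromosome 8 and moved in opposite directions in Drd1+ neurons. Noncoding genes were called more often than coding ones in each cluster: 20.4% of 991 long noncoding RNAs against 15.5% of 11186 coding genes in Drd1+ neurons, and 20.8% of 318 against 9.11% of 8254 in oligodendrocytes. No test was made of these shares. The share of tested genes called ran by chromosome from 9.79% on chromosome 19 to 19.5% on chromosome 12 in Drd1+ neurons.

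Genes linked to autoimmunity were then examined as lists. All genes were called in shares of 15.9% and 12.2% in the Drd1+ and Drd2+ neurons, 9.55% in oligodendrocytes, 4.11% in astrocytes and 5.71% in macrophages, and the counts of each list stand beside these. Over all genes the unadjusted edgeR p was under 0.05 for 3288 of 12220, 2845 of 11702, 1668 of 8586, 1107 of 7812 and 565 of 3710, in the same order. Counts of list members at that level stand beside these numbers. Of 19 listed genes of MHC class I presentation, 7 were tested in Drd1+ neurons, and 1 rose. This was H2-T23, a nonclassical class I gene that ligates natural killer receptors, at 3.11, 4.70, 6.79 and 7.84 CPM against 0.555, 1.69 and 6.22 in the lowest, median and highest of the others, so the groups overlapped (1.42, SE 0.30, adjusted p = 0.000475 by edgeR). H2 genes are close relatives that differ between strains, so a strain's reads may map to a relative. None of the class I genes was called in the other clusters: of 5 tested in Drd2+ neurons, 2 in oligodendrocytes, 6 in astrocytes and 4 in macrophages, 0, 0, 1 and 2 had an unadjusted p under 0.05, and DESeq2 called 0. Against mice with Y transcripts alone 1 rose in Drd2+ neurons.

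The few genes of MHC class II presentation that could be tested gave no call by edgeR or DESeq2. Of 14 listed, 3 were tested in each neuron cluster and 2 each in oligodendrocytes and macrophages, with unadjusted p under 0.05 for 0, 1, 1 and 0. Those tested in Drd1+ neurons were Ctss, Ciita and H2-DMa, and those in macrophages were Ctss and Cd74. Cd74 stood at 4.52 CPM against 31.2 CPM there, with an SE of 415, so its test could not decide. The lack of calls speaks only for the genes tested. With the sex term 1 rose in Drd2+ neurons, and against mice with Y transcripts alone 1 rose in each neuron cluster. H2-Ab1 and Hc did not pass the low-count filter in any cluster. Interferon-stimulated genes were likewise not called in any of the 5 clusters by either tool: 6 of 40 listed were tested in Drd1+ neurons and 5 in each other cluster, and the unadjusted p was under 0.05 for 0, 0, 1, 1 and 0 of them in the order above. In macrophages the median log2 fold change of the 5 was -0.52, beside 0.02 over all genes, and against mice with Y transcripts alone 1 rose and 1 fell.

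Of 22 listed genes at mapped diabetes loci, 8 were tested in Drd1+ neurons and 2 fell, where 6.54% of all genes fell, and 2 also fell with the sex term and against mice with Y transcripts alone: Arntl2, a circadian transcription factor gene (-0.96, SE 0.21, adjusted p = 0.000784 by edgeR), and Tnfrsf9, the co-stimulatory receptor 4-1BB (-1.26, SE 0.37). Arntl2 stood at 4.44, 4.03, 3.96 and 3.75 CPM against 4.41, 7.59 and 12.8, and Tnfrsf9 at 1.78, 2.01, 2.26 and 1.70 CPM against 0.851, 4.71 and 18.5. Only the ranges of Tnfrsf9 overlapped broadly, and it lost its call without batch 2 (adjusted p = 0.0529) and without batch 4 (0.102). In Drd2+ neurons 1 of 9 tested genes of this list fell, beside 4.79% of all genes. None of 4 in oligodendrocytes, 5 in astrocytes and 7 in macrophages was called by edgeR or DESeq2, and 0, 1 and 2 had an unadjusted p under 0.05. Against mice with Y transcripts alone 1 fell in macrophages. Of 10 listed genes with known NOD alleles, 3 were tested in macrophages and 1 rose, where 3.77% of all genes rose. Cdh23, the hearing loss gene, encodes a cadherin and rose in macrophages: it stood at 371, 407, 305 and 530 CPM against 71.5, 178 and 464 (1.10, SE 0.15, adjusted p = 1.09e-08). The groups overlapped, and 129S1/SvImJ had a mean of 440 CPM. Fcgr1, the high-affinity receptor for antibodies, stood at 69.1, 168, 602 and 145 CPM in macrophages against a median of 130 and was not called (0.69, SE 0.28, adjusted p = 0.183). Ahr, the receptor for aromatic compounds, was not called in Drd1+ neurons (-0.16, SE 0.17, adjusted p = 0.597).

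Complement genes moved in both directions. Of 26 listed, 12 were tested in Drd1+ neurons, with 2 higher and 2 lower, beside 9.35% and 6.54% of all genes. In oligodendrocytes 10 were tested and 3 were higher, beside 5.67% of all genes, and 2 were higher with the sex term and against mice with Y transcripts alone. DESeq2 called 2 there. Cd59a, which blocks the membrane attack complex on the cell's own surface, rose in Drd1+ neurons to 29.7, 21.8, 44.7 and 35.8 CPM against 2.76, 10.7 and 72.2 in the lowest, median and highest of the others (1.50, SE 0.11, adjusted p = 6.86e-14 by edgeR). WSB/EiJ was higher still, with a mean of 52.6 CPM, and NOD/ShiLtJ was called higher than the other 6 strains. Cd55, a further inhibitor on the cell surface, rose in oligodendrocytes (2.35, SE 0.36). Csmd3, a large membrane protein with complement-like domains, was lower in Drd1+ neurons (-0.19, SE 0.04) and higher in macrophages, where it stood at 9510, 8252, 8867 and 9888 CPM against 1584, 4900 and 10333 (0.86, SE 0.07). Its Drd1+ call was lost without the block (adjusted p = 0.0706).

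Of 28 microglia genes tested in macrophages, where 5.71% of all genes were called, 1 rose and 1, Mef2c, fell, and the median log2 fold change was -0.03. In Drd2+ neurons 4 of 14 fell, beside 4.79% of all genes, with a median of -0.20, and 5 macrophage markers summed there to 51.8 CPM in NOD/ShiLtJ and 68.8 CPM in the others on average, a difference whose part in the result was not tested. With the sex term, and against mice with Y transcripts alone, 1 rose and 3 fell in Drd2+ neurons. The riser in macrophages was Trem2, a lipid receptor of microglia, at 397, 540, 1500 and 602 CPM against 296, 477 and 1134 (0.43, SE 0.13, adjusted p = 0.0223 by edgeR). Of 4 activated microglia genes tested there, Cd9, a tetraspanin, was called (0.71, SE 0.15), at 242, 259, 972 and 325 CPM against 80.9, 248 and 691. Both genes, and Fcgr1, were highest in the batch 3 NOD/ShiLtJ mouse. Trem2 in macrophages was not called with the sex term (adjusted p = 0.0536), against mice with Y transcripts alone (0.082) or by DESeq2 (0.0886). Without batch 3 neither was called, with log2 fold changes of 0.24 (adjusted p = 0.489) for Trem2 and 0.35 (0.395) for Cd9. The sum of 5 T cell markers in macrophages ran from 0 to 14 CPM in NOD/ShiLtJ, with Cd3g, Trac and Themis at 0, against 0 to 117 CPM in the other strains, where Trac was also at 0. Of 10 listed B cell genes, 2 were tested in macrophages and 1 fell, beside 1.94% of all genes. This was Bank1, a signalling scaffold known from B cells, at 121, 140, 148 and 271 CPM against 104, 359 and 680 (-1.0, SE 0.20, adjusted p = 0.000357 by edgeR). The 4 other B cell markers summed to 0 to 24.3 CPM in these NOD/ShiLtJ libraries and to 0 to 103 CPM in the others.

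Astrocyte genes were called in 1 direction in astrocytes: of 28 listed and tested, 9 rose and none fell, beside 2.84% and 1.27% of all genes, and the median log2 fold change was 0.16 against 0.02 over all genes. The sex term left 8 and the mice with Y transcripts gave 9. Lcat, which esterifies cholesterol on lipoproteins, stood at 84.3, 87.0, 235 and 180 CPM against 29.5, 66.4 and 175 in the lowest, median and highest of the others (0.96, SE 0.17, adjusted p = 2.45e-05 by edgeR). Gfap, the filament protein of reactive astrocytes, stood at 225, 182, 100 and 260 CPM against 9.90, 83.2 and 433 (0.93, SE 0.21, adjusted p = 0.00777). Kcnj10, the potassium channel Kir4.1, stood at 231, 211, 165 and 132 CPM against 91.3, 119 and 186 (0.57, SE 0.13). The groups overlapped in all 3 genes. Id3, an inhibitor of DNA binding (0.53, SE 0.11), Atp1b2, a sodium pump subunit (0.50, SE 0.10), Ntsr2, a neurotensin receptor (0.47, SE 0.09), Slc6a11, a GABA transporter (0.44, SE 0.12), Mlc1, a membrane protein of astrocyte endfeet (0.42, SE 0.11), and Aqp4, the water channel of the endfeet (0.40, SE 0.11), were the other 6.

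Several of these astrocyte calls were lost when 1 batch was left out, and depth differed beside them. Over all genes the calls in astrocytes fell from 321 to between 158 and 256 in these runs. A lost call therefore does not by itself show that it rests on that batch. The median number of UMIs per astrocyte nucleus was higher in NOD/ShiLtJ, at 2411 ± 260 (SD, n = 4) against 2130 ± 292 (SD, n = 28; exact permutation within batches, two-sided, adjusted p = 0.0103 over 6 measures), and its part in the result was not tested. Kcnj10 lost its call without batch 1 (adjusted p = 0.0817) and without batch 2 (0.0612), Id3 in astrocytes without batch 4 (0.0784), Mlc1 without batch 1 (0.243), Slc6a11 without batch 2 (0.286) and Aqp4 without batches 1, 2 or 4 (0.126, 0.245 and 0.0700). Against the classical strains alone Gfap, Id3, Slc6a11 and Aqp4 were not called. Lcat, Atp1b2 and Ntsr2 kept their calls in each of these runs, and Lcat was not called without the block (adjusted p = 0.0537). Markers of oligodendrocytes in the same libraries ran from 3320 to 4675 CPM in NOD/ShiLtJ and from 2380 to 4536 CPM in the others. Of 18 oligodendrocyte and myelin genes tested in astrocytes, 1 rose and 0 fell, beside 2.84% and 1.27% of all genes. Their median log2 fold change was 0.28, beside 0.02 over all genes, and the cause was not tested. With the sex term 2 rose.

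Myelin and oligodendrocyte genes divided. Of 32 listed, 31 were tested in oligodendrocytes, 5 rose and 6 fell, beside 5.67% and 3.88% of all genes, and their median log2 fold change was 0.02, as over all genes (0.01). Klk6, a secreted protease of oligodendrocytes, stood at 65.3, 70.8, 211 and 126 CPM against 5.04, 48.1 and 164 (1.49, SE 0.13, adjusted p = 2.25e-16 by edgeR), and Car2, carbonic anhydrase, at 935, 886, 1214 and 922 CPM against 362, 656 and 962 (0.62, SE 0.06). Ptgds, a prostaglandin synthase, stood at 771, 504, 2073 and 1061 CPM against 735, 2027 and 10200 (-1.06, SE 0.16), and Il33, a nuclear cytokine, at 150, 159, 156 and 148 CPM against 57.3, 289 and 914 (-0.71, SE 0.11). In all 4 genes the groups overlapped. Il33 was high in CAST/EiJ (mean 887 CPM) and PWK/PhJ (475 CPM), and against the classical strains alone its log2 fold change was 0.082 (adjusted p = 0.834). The call of Ptgds was lost without the block (adjusted p = 0.166). Smaller changes were called for Aspa (0.33), Opalin (0.30) and Sox10 (0.27), which rose, and Trf (-0.30), Mobp (-0.27), Nfasc (-0.22) and Gjc3 (-0.21), which fell. Without the block 3 rose and 2 fell, and against the classical strains 2 rose.

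Genes that mark the projection neurons included the direct pathway's own peptides. Of 34 listed and tested in Drd1+ neurons, 7 rose and 1 fell, beside 9.35% and 6.54% of all genes. Against mice with Y transcripts alone 6 rose and 3 fell, beside 1384 and 939 of 12475 genes. Pdyn, the dynorphin precursor, stood at 79.4, 102, 113 and 80.1 CPM against 30.1, 51.9 and 76.4, so that every NOD/ShiLtJ mouse lay above the others (0.91, SE 0.11, adjusted p = 1.42e-06 by edgeR). Tac1, the substance P precursor, stood at 391, 384, 678 and 422 CPM against 211, 291 and 609 (0.59, SE 0.07). Both were called higher than each of the 7 strains. Oprm1, the mu opioid receptor of striosomes, stood at 29.3, 19.8, 27.1 and 18.7 CPM against 23.8, 45.3 and 65.7 (-0.99, SE 0.15), and was called lower than 6 strains. Isl1 (0.51, SE 0.11), a transcription factor of direct pathway neurons, and Ebf1 (0.23, SE 0.06) rose too, though Ebf1 in Drd1+ neurons lost its call without batch 4 (adjusted p = 0.0902) and against the classical strains (0.275). Cnr1, the cannabinoid receptor (0.55, SE 0.18), Ppp1r1b, which encodes DARPP-32 (0.19, SE 0.07), and Rgs9 (0.15, SE 0.05) were called but lost the call with the sex term (adjusted p = 0.140, 0.149 and 0.140), leaving 4, and Cnr1 was not called without any 1 batch (0.0582 to 0.248).

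In Drd2+ neurons 5 of 32 tested projection neuron genes rose and 1 fell, beside 7.38% and 4.79% of all genes. With the sex term 3 rose and 1 fell, and against mice with Y transcripts alone 4 rose and 3 fell. The enkephalin precursor Penk in Drd2+ neurons had a log2 fold change of 0.25 (SE 0.07, adjusted p = 0.00903 by edgeR) that was lost without the block (adjusted p = 0.636) and without batch 4 (0.0692). Rasgrp2 (0.29, SE 0.07), Rgs9 (0.22, SE 0.05), Cnr1 (0.50, SE 0.15) and Ppp1r1b (0.18, SE 0.06) rose, the last 2 without a call under the sex term (adjusted p = 0.0994 and 0.0977), and Ano3 fell (-0.18, SE 0.06). Immediate early genes, which neurons switch on with activity, gave 1 call among 16 tested in Drd1+ neurons, where 15.9% of all genes were called. This was Nr4a3 at 68.8, 51.7, 44.7 and 31.7 CPM against 0.333, 15.9 and 76.1 (1.32, SE 0.40, adjusted p = 0.0248), with a list median of 0.47. With the sex term 2 of the 16 were higher, against mice with Y transcripts alone 10, where 2323 of 12475 genes were called, and DESeq2 called 0. In Drd2+ neurons edgeR called 0 of 16, 3 had an unadjusted p under 0.05, as had 2845 of 11702 genes, and DESeq2 called 0. Against mice with Y transcripts alone 4 were higher there, beside 1087 of 12036 genes. Nr4a3 lost its call without batches 1, 2 or 3 (adjusted p = 0.0823, 0.107 and 0.124).

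**Figure D3:**
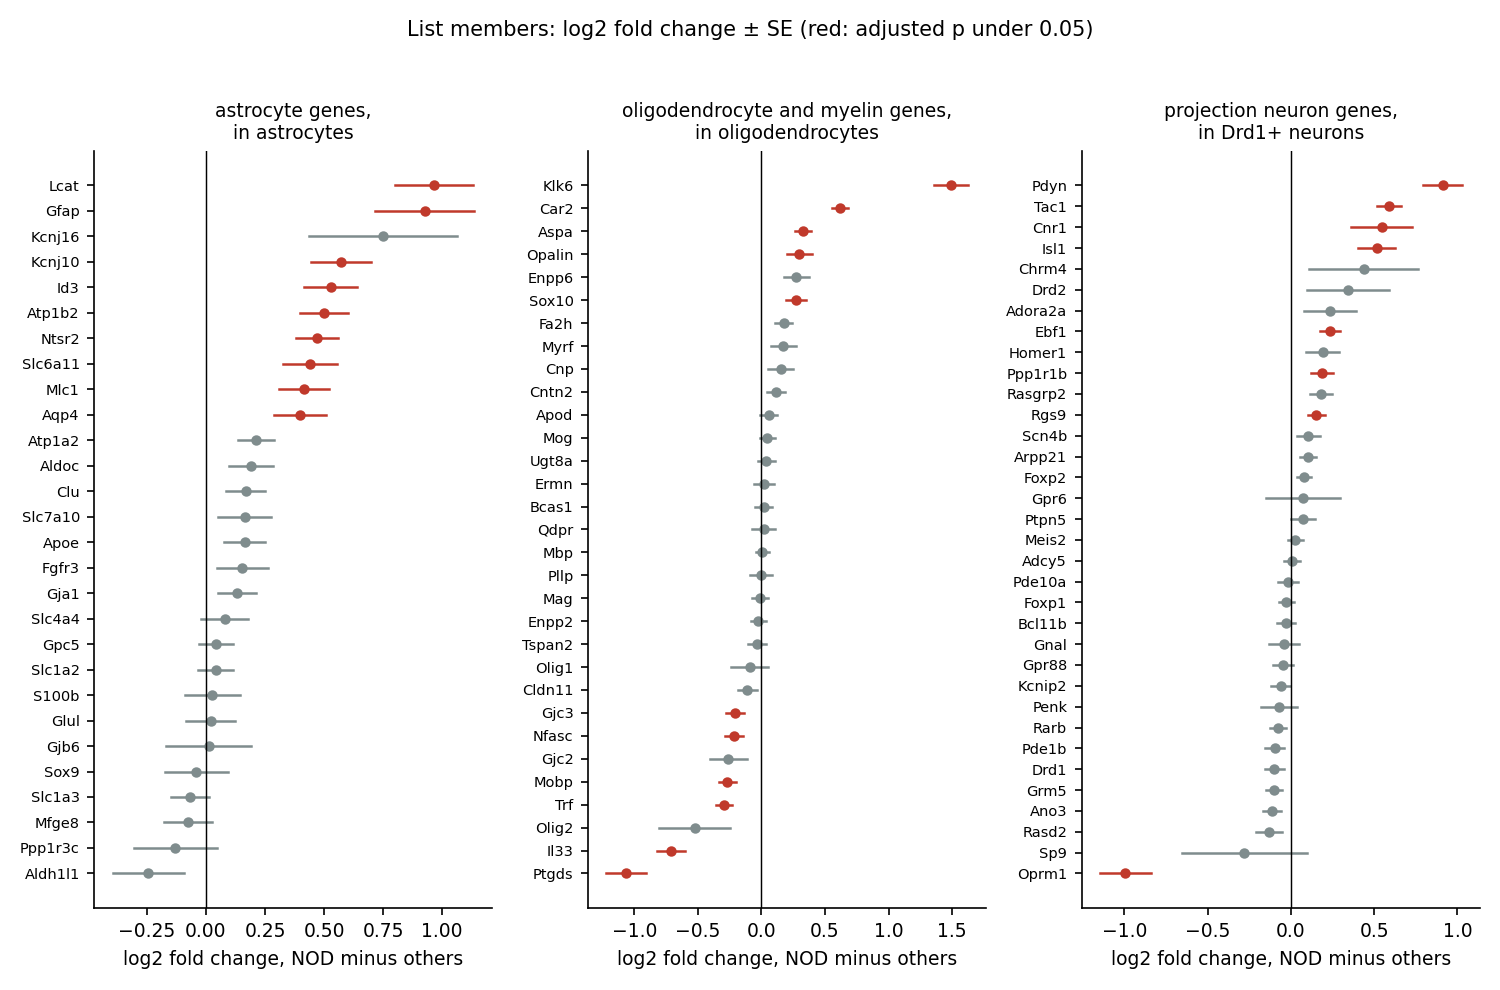
Log2 fold change of NOD/ShiLtJ minus the mean of the other 7 strains (x axis; point ± SE) for the members tested of 3 gene lists (y axis), in astrocytes, oligodendrocytes and Drd1+ neurons, with genes at an adjusted p under 0.05 in red. In the astrocyte panel 9 members are red, all to the right of 0, while the oligodendrocyte panel has 5 red to the right and 6 to the left.

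Whether the strain difference itself differed between clusters was tested in 1 fit over both clusters with the mouse as a block. Relative to Drd1+ neurons, the contrast differed in 126 of 12515 genes in Drd2+ neurons (1.01%), 429 of 12706 in oligodendrocytes (3.38%), 206 of 13066 in astrocytes (1.58%) and 151 of 13246 in macrophages (1.14%). With the sex term these were 107, 387, 168 and 131. A gene could enter the joint fit on the counts of either cluster, whereas 3710 genes could be tested in macrophages alone. The shares therefore do not rank the clusters by how far they differ from Drd1+ neurons. Of genes called both in Drd1+ neurons and in the second cluster, 936 of 939 moved in the same direction for Drd2+ neurons. For oligodendrocytes it was 174 of 218, for astrocytes 88 of 105 and for macrophages 37 of 54. Without the mouse as a block most of the differences for Drd2+ neurons were not called, as given further below.

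Psat1, an enzyme of serine synthesis, rose in Drd1+ neurons to 69.7, 72.1, 74.7 and 81.1 CPM against 7.73, 13.4 and 103 in the lowest, median and highest of the others (1.87, SE 0.08), but had log2 fold changes of -0.28 (SE 0.12) in oligodendrocytes and 0.02 (SE 0.16) in astrocytes. The difference between clusters was -2.11 (SE 0.15, adjusted p = 3.55e-17 by edgeR) for oligodendrocytes and -1.86 (SE 0.18, adjusted p = 1.59e-14) for astrocytes. Prkd1, a kinase of the protein kinase D family, rose in Drd1+ neurons (0.85, SE 0.07) and had -0.14 (SE 0.08) in Drd2+ neurons, a difference of -0.99 (SE 0.08). Dscaml1 was lower in both kinds of neuron, and less so in Drd2+ neurons by 0.81 (SE 0.09). In glia Cdh2, which encodes N-cadherin, rose in oligodendrocytes to 393, 492, 519 and 495 CPM against 37.3, 83.8 and 560 (2.07, SE 0.08), with 0.27 (SE 0.06) in Drd1+ neurons. Among macrophages Nrp1, a neuropilin, stood at 173, 231, 231 and 211 CPM against 0, 20.5 and 342 (2.39, SE 0.27), and Itga9, an integrin chain, fell there (-1.15, SE 0.25) while it rose in Drd1+ neurons (1.56, SE 0.17). Unc13c, a vesicle priming factor, was lower in Drd1+ neurons (-0.33, SE 0.07) and higher in astrocytes (0.99, SE 0.12).

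**Figure D4:**
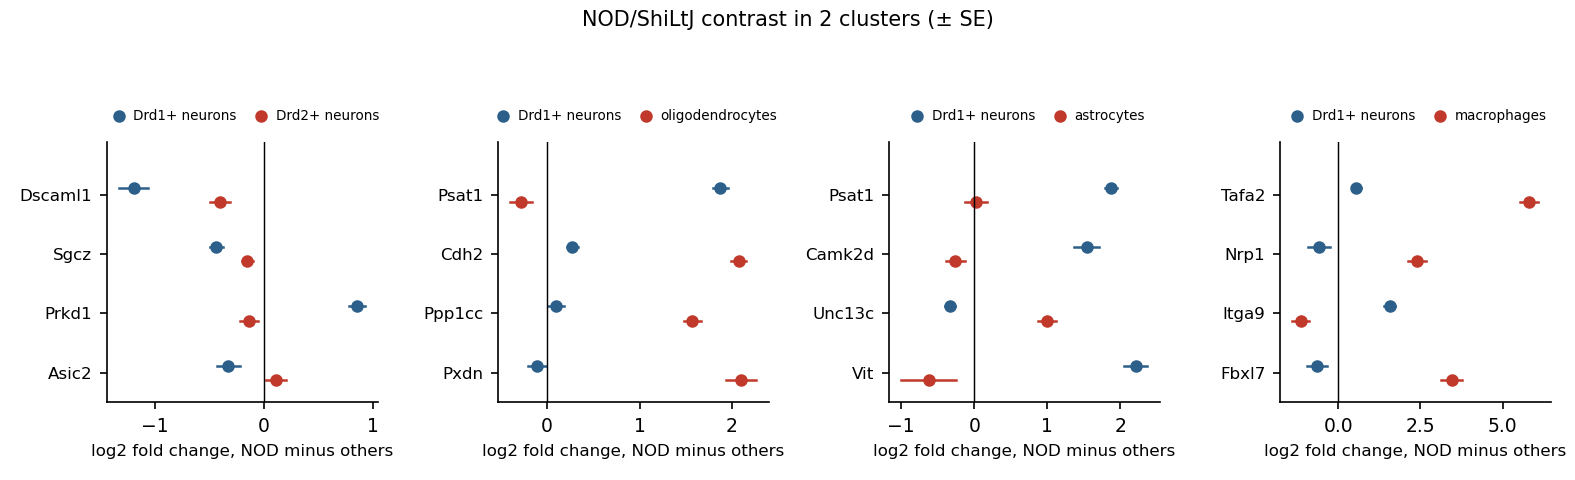
Log2 fold change of NOD/ShiLtJ minus the mean of the other 7 strains (x axis; point ± SE) in Drd1+ neurons (blue) and in the second cluster named above each panel (red), for the 4 genes with the smallest p of each difference. Psat1 and Camk2d lie to the right of 0 in Drd1+ neurons and near or left of 0 in astrocytes, and Tafa2 lies at 0.55 in Drd1+ neurons against 5.80 in macrophages.

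The mix of nuclei differed as well. Drd1+ neurons made up 19.9%, 22%, 22.2% and 19.8% of the annotated nuclei of the 4 NOD/ShiLtJ mice, 21.0% ± 1.32 (SD, n = 4), against 28.8% ± 3.93 (SD, n = 28) in the others, with a lowest, median and highest share of 21.2%, 28.6% and 38.3%. The ranges overlapped at their edge, and the other strains' means ran from 26.9% in WSB/EiJ to 30.6% in CAST/EiJ. The mean log2 share differed by -0.45 (exact permutation within batches, two-sided, p = 0.000244, the smallest that 4096 arrangements can give; adjusted p = 0.00439 over 18 clusters). Drd2+ neurons had shares of 23.1% ± 2.27 and 24.0% ± 3.09 (adjusted p = 0.665 by the same exact permutation).

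Oligodendrocytes made up 33.8%, 23.8%, 28.8% and 29.9% of the NOD/ShiLtJ nuclei, 29.1% ± 4.11 (SD, n = 4), against 20.4% ± 4.31 (SD, n = 28), with a highest other mouse of 29.4%. The log2 difference was 0.53 (exact permutation, adjusted p = 0.0132). It was lost when oligodendrocytes were taken as a share of non-neuronal nuclei (0.21, adjusted p = 0.0846), and without batch 1 (0.45, 0.105), batch 2 (0.59, 0.0527) or batch 4 (0.58, 0.0703). It was kept without batch 3 (adjusted p = 0.0176), against mice with Y transcripts alone (0.56, 0.0225) and over nuclei with at least 1000 UMIs (0.54, 0.033). Leaving out a batch leaves 512 arrangements, with a smallest unadjusted p of 0.00195 by the exact permutation. A call lost there therefore does not by itself show that the difference rests on that batch. The Drd1+ difference kept its call without each batch. As a share of neurons, a total that leaves oligodendrocytes out, it was -0.26 (exact permutation, adjusted p = 0.00781). Drd2+ neurons differed by 0.14 in that total and were not called (exact permutation, adjusted p = 0.0801). Shares of 1 mouse sum to a whole, so within 1 total a lower share of one cluster and a higher share of another cannot be told apart. Nor can the strain's tissue be told apart here from how its nuclei were recovered. The other 16 clusters were not called.

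**Figure D5:**
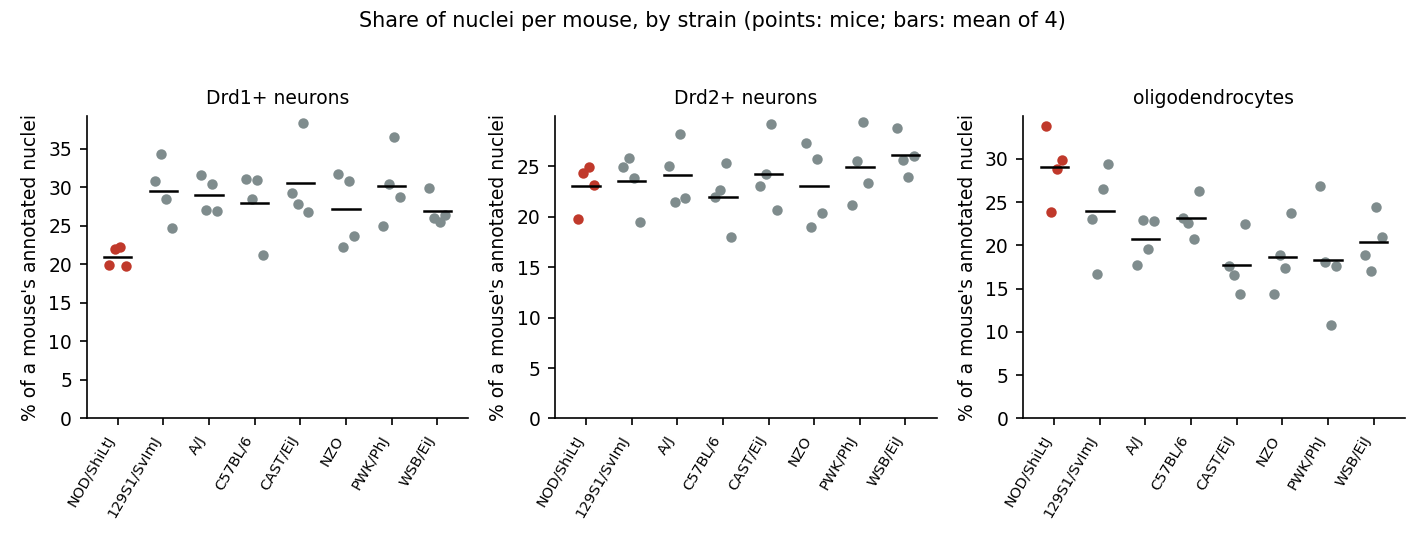
Share of a mouse's annotated nuclei in percent (y axis, from 0) in Drd1+ neurons, Drd2+ neurons and oligodendrocytes, by strain (x axis), with 1 point per mouse, NOD/ShiLtJ in red and a bar at the mean of 4. The NOD/ShiLtJ mean is the lowest for Drd1+ neurons at 21.0% and the highest for oligodendrocytes at 29.1%.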

How the data were processed

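Gene counts per nucleus are raw UMI counts as deposited by the authors, who made them with Cell Ranger ARC 2.0.0 after bcl2fastq 2.20.0.422 on the mm10/GRCm38 builds, per the submitters' processing notes; strand use and gene annotation are not given in the sources used here. Strain, batch and cluster of each nucleus were taken from the authors' deposited nucleus table. Raw counts were summed per mouse and cluster, mice being the replicates, and autosomal genes were kept by symbol. edgeR 4.0.16 (R 4.3.3) was run with its low-count filter by strain, TMM scaling, robust quasi-likelihood fits, and strain and batch as terms. Called means a Benjamini-Hochberg adjusted p under 0.05 within a cluster. Differences between clusters were tested in a joint fit with the mouse as a block. Shares and UMIs per nucleus were tested by exact two-sided permutation within batches.

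The batch number marks a shared pool per the labels, and batch is the block in the fit. The median correlation of same-batch deviations was 0.151, 0.131, 0.120, 0.0452 and 0.0738 over the clusters from Drd1+ neurons to macrophages, against -0.0597 to -0.0159 for mice of different batches. Doublets had been handled by the authors before annotation, and none were called again. On simulated data, edgeR recovered 92% of 200 genes changed 2-fold in Drd1+ neurons and 85% in macrophages, with 9 and 4 unchanged genes called. For differences from Drd1+ neurons recovery ran from 70% in macrophages to 88% in Drd2+ neurons. The simulated data held no batch effect and no differences among the other strains, and genes with few counts were not changed. That setting is simpler than the real data.

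Genes were named by a rule: called, at 10 CPM or more, with all 4 NOD/ShiLtJ mice outside the range of the 28 others, the 8 largest rises and falls per cluster (5 in astrocytes and macrophages); genes called in all 5 clusters; the 4 smallest p of each difference between clusters; up to 4 called members per list; and Hc, Cdh23, Fcgr1, Ahr, H2-Ea and H2-Ab1 where tested. Further called list members were named after their values were seen. The members, lists and rule were chosen with earlier results of these data known. Alternatives were DESeq2 1.42.0, other scaling, no filter, no block, each batch left out, the classical strains alone, a fold threshold and, chosen after seeing the data, a sex term, mice with Y transcripts alone and thin or outlying libraries left out.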

Additional observations from a re-analysis of the deposited data

Results flagged for a closer look

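In 117 groups of 4 NOD/ShiLtJ mice, 5 had 1 mouse far from the other 3 (past the 95% critical value of Dixon's gap test, which chance gives in about 1 in 20 groups). The batch 3 mouse was apart in 4 of them: Tac1 at 678 CPM in Drd1+ neurons, Car2 at 1214 CPM in oligodendrocytes, and Cd9 at 972 CPM and Adamts16 at 198 CPM in macrophages. The fifth was A330049N07Rik in oligodendrocytes, at 1.02 CPM in batch 1 beside 3 mice at 0.

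The NOD/ShiLtJ contrast differed between Drd1+ neurons and a second cluster for 16 gene and cluster pairs named by smallest p, each tested in edgeR's joint fit. For Drd2+ neurons the differences were 0.81 for Dscaml1, 0.28 for Sgcz, -0.99 for Prkd1 and 0.44 for Asic2. Those of Sgcz and Asic2 were not called without the block. For oligodendrocytes they were -2.11 for Psat1, 1.85 for Cdh2, 1.51 for Ppp1cc and 2.25 for Pxdn. For astrocytes they were -1.86 for Psat1, -1.83 for Camk2d, 1.32 for Unc13c and -2.90 for Vit. For macrophages they were 5.90 for Tafa2, 3.07 for Nrp1, -2.69 for Itga9 and 4.59 for Fbxl7.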

How the results depend on the processing

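Of 185 gene results, 97 kept direction and call under the alternatives run for them and 88 changed under at least 1. The fold threshold was applied to counts over all genes and not to single genes, and leaving out libraries under 50 nuclei was run for 51 of the results. Against the classical strains alone 39 lost their call and 2 reversed: Gabrg3 in Drd1+ neurons (-0.31, adjusted p = 7.69e-06 by edgeR) and Il33 in oligodendrocytes (0.082, adjusted p = 0.834). That setting called 502 genes in oligodendrocytes, 206 in astrocytes and 138 in macrophages. Requiring a log2 fold change of at least 1 left 339 and 258 genes in the Drd1+ and Drd2+ neurons, 193 in oligodendrocytes, 92 in astrocytes and 102 in macrophages. Without the replicate block 34 gene results lost their call, genes differing from all 7 strains fell to 2 in astrocytes and 3 in macrophages, and genes differing between the kinds of neuron fell from 126 to 6, with Sgcz (adjusted p = 0.0905) and Asic2 (0.471) lost. Leaving out 1 batch at a time gave 1260 to 1485 and 922 to 1117 called genes in the Drd1+ and Drd2+ neurons, 541 to 735 in oligodendrocytes, 158 to 256 in astrocytes and 152 to 189 in macrophages. Genes differing from all 7 strains then numbered 42 to 58, 23 to 32, 14 to 20, 0 to 2 and 2 to 4 in the same order. Differences from Drd1+ neurons numbered 79 to 94 in Drd2+ neurons, 237 to 425 in oligodendrocytes, 108 to 163 in astrocytes and 100 to 127 in macrophages. Clusters with a called share numbered 1 to 2, the oligodendrocyte share difference ran from 0.45 to 0.59, and 1 to 4 UMI or nucleus measures were called. With neurons and other nuclei as separate totals 1 cluster was called, and the oligodendrocyte difference was 0.21 (exact permutation, adjusted p = 0.0846). The cause of these changes was not tested. Depth limits macrophages most, where 3710 genes could be tested.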

Other observations

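Glutamate and GABA receptor genes were counted in each cluster. In astrocytes 21 of 30 listed were tested, and 6 rose and 1 fell by edgeR, beside 2.84% and 1.27% of all genes, with a median log2 fold change of 0.08 beside 0.02 over all genes. The risers were Grin3a (1.12), Gabra4 (0.66), Gabbr1 (0.65), Gabra2 (0.49), Gabrg1 (0.48) and Gria2 (0.40), and Grin2b fell (-0.58). With the sex term 5 rose. In oligodendrocytes 3 of 23 rose and 2 fell, beside 5.67% and 3.88% of all genes, among them Grik4 (1.22) and Grik1 (-0.53). In Drd1+ neurons 2 of 29 were higher and 4 lower, beside 9.35% and 6.54% of all genes, and against mice with Y transcripts alone 4 were higher and 8 lower. The higher ones included Gabrg3, which was called lower against the classical strains alone. In Drd2+ neurons 1 of 29 was higher and 4 lower, beside 7.38% and 4.79%, and 1 and 6 against mice with Y transcripts alone. In macrophages edgeR called 0 of 7, none had an unadjusted p under 0.05, and DESeq2 called 0. Against mice with Y transcripts alone 1 rose there.

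Of 30 listed genes of insulin signalling and glucose handling, 24 were tested in Drd1+ neurons and 4 were called, near the 15.9% of all genes called there, and DESeq2 called 2. The 3 that rose were Irs2 (0.58), an adaptor of the insulin receptor, Pdk1 (0.34) and Hk1 (0.24), and Akt2 fell (-0.29). In oligodendrocytes 2 of 25 fell, beside 3.88% of all genes, Fkbp5 (-2.29), a co-chaperone of the glucocorticoid receptor, and Pdk2 (-0.76). Foxo1 alone of 22 fell in astrocytes (-0.54), beside 1.27%, while 2 fell with the sex term and 3 against mice with Y transcripts alone. In Drd2+ neurons 1 of 23 fell, beside 4.79%, while 2 rose and 1 fell with the sex term and 2 rose and 2 fell against mice with Y transcripts alone, and in macrophages edgeR called 0 of 14, where 1 had an unadjusted p under 0.05 and DESeq2 called 1.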
